A study of Mus musculus with 21 samples.

Results

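The genes described here take up dietary fat and vitamin A in the gut and pack them into lipoproteins. They are Apoa1, Apoa4, Apob, Apoc3, Fabp1, Fabp2, Mttp, Rbp2, Dgat1 and Cd36, which are 10 of the 55414 genes in the deposited count table. They were chosen by name and function with their levels in these libraries known, above all the low Apoa4 level after antibiotics, so the contrast of antibiotics with no antibiotics is a description without a test. RNA was sequenced from Paneth cells, the antimicrobial secretory cells at the base of small intestinal crypts, which had been purified by fluorescence-activated cell sorting from C57BL/6J mice. The 21 libraries formed 6 groups. Specific pathogen-free (SPF) mice drank Milli-Q water (3 libraries) or zinc water (3), SPF mice given broad-spectrum antibiotics (ABX) drank Milli-Q water (4) or zinc water (4), and germ-free (GF) mice drank Milli-Q water (3) or zinc water (4). Each water was given for 7 weeks, the zinc water is labelled as 200 mM ZnSO4, and the antibiotics covered the last 3 weeks. Age and sex of the mice are not given in the labels, and no label ties a library to a cage or to a sorting day, so p-values measure the spread between these libraries.

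In the villus, CD36 at the cell surface and the small fatty acid binding proteins FABP1 and FABP2 inside the cell help to carry fatty acids, and DGAT1 makes triglyceride from them. MTTP, the microsomal triglyceride transfer protein, loads lipid onto apolipoprotein B, the scaffold of the chylomicron, and APOA1, APOA4 and APOC3 ride on its surface. RBP2 binds retinol after uptake. The enterocyte, the absorptive cell that covers the villus, is the cell best known for this programme, and the Paneth cell is not.

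Apoa1 (ENSMUSG00000032083), Apoc3 (ENSMUSG00000032081) and Apoa4 (ENSMUSG00000032080) are neighbours in the mm39 genome, at chr9:46139878-46142212 on the plus strand, chr9:46142527-46146934 on the minus strand and chr9:46151994-46154757 on the plus strand, and together span 14880 bases. Apob (ENSMUSG00000020609) lies at chr12:8027648-8066835, Fabp1 (ENSMUSG00000054422) at chr6:71176809-71182016, Fabp2 (ENSMUSG00000023057) at chr3:122688721-122693155 and Rbp2 (ENSMUSG00000032454) at chr9:98368121-98391834, all on the plus strand. Mttp (ENSMUSG00000028158) at chr3:137795612-137850729, Dgat1 (ENSMUSG00000022555) at chr15:76385083-76396476 and Cd36 (ENSMUSG00000002944) at chr5:17986432-18094067 lie on the minus strand. Annotated genes on the opposite strand overlap 6 of them: Gm47528 and Gm10680 (Apoa4), Gm33037 (Apob), 4933405D12Rik (Fabp2), Gm43691 and Trmt10a (Mttp), Hsf1 (Dgat1) and Gm72030 (Cd36). Gm37113 overlaps Rbp2 on the same strand. No source used here says if reads were assigned by strand, so reads of these pairs may be shared.

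The 250 bases upstream of the annotated start are shown for Apoa4, whose level varied most between libraries, and for Apob, whose zinc difference was found in the most comparisons, read from the GRCm39 genome. Apoa4 is at chr9:46151744-46151993 and Apob at chr12:8027398-8027647, both on the plus strand, and capitals mark the letters TATAAA, the TATA box.
Apoa4: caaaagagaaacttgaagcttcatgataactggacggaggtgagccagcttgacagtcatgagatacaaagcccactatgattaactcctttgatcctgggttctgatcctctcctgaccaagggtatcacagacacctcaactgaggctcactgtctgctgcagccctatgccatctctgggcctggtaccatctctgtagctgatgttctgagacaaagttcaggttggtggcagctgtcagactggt
Apob: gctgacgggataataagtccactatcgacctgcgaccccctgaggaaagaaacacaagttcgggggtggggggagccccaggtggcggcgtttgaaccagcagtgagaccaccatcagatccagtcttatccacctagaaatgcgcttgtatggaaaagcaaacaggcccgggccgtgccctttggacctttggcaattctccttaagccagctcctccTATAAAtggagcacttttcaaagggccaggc

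The Apoc3 and Rbp2 windows held the letters TGACCTTTG, the complement of CAAAGGTCA, a core of the kind bound by the enterocyte transcription factor HNF4. The 30 bases around each match are shown, with the match in capitals. Apoa1, Apoa4 and Fabp1, which rose and fell with these genes across the libraries, held no such exact match. Only exact letters were searched, so a site that differs by a letter would be missed. Apoc3 is at chr9:46146664-46146693 on the minus strand, inside an exon of another Apoc3 transcript, and Rbp2 is at chr9:98372521-98372550 on the plus strand.
Apoc3: tgctcagcaggTGACCTTTGcccagctcac
Rbp2: agctgggcttaTGACCTTTGactctattat

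CAAAGGTCA was found on either strand in 0.391% of 21757 windows of 250 bases upstream of protein-coding genes and in 2 of the 10 windows described here. CAAAGTCCA, a second core of that kind, was in 0.372% of all windows and in 0 of the 10. TATAAA was in 11.9% of all windows and in 3 of the 10, namely those of Apob, Apoc3 and Rbp2. TGCACNC, a core of the zinc-responsive metal response element, was in 10.7% of all windows and in those of Fabp1, Fabp2 and Dgat1, whereas TGCGCNC was in 12.8% of all windows and in none of the 10. AGATAA, bound by GATA factors, was in 9.61% of all windows and in those of Mttp and Rbp2. These matches describe letters in a short window.

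Total counts ranged from 9888174 to 16896714 per library (median 12936001). Levels are given as CPM, counts scaled to a common library size with TMM factors, a scaling that sets the bulk of genes level between libraries. Paneth cell markers such as Lyz1 and Defa24 summed to between 202439 and 445374 CPM in the SPF and ABX libraries and to between 573562 and 1025990 CPM in the GF libraries. The TMM factors were 0.523 to 0.834 in GF libraries and 0.996 to 1.49 in the others, so comparisons of GF with SPF depend on the scaling. When library totals alone were used, the median of all genes shifted to -0.99 (log2) for GF against SPF on Milli-Q water and to -0.61 on zinc water. SPF zinc library 1 held 6228 counts of Xist, the RNA of the inactive X chromosome, against 0 to 34 in the other libraries. It was also the highest of the 21 for Apoa4, Apob, Mttp and Cd36, so the comparisons that rest on SPF zinc libraries are also given without it.

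All 10 genes had reads in these sorts, at levels that differed widely per length. In TPM, a level per transcript length computed here from counts and the longest annotated transcript, the median over libraries was 159 for Fabp2, 27.0 for Apoa1, 13.6 for Dgat1 and 12.03 for Fabp1. Apoa4 came next, and Rbp2 followed at 9.75 TPM, Mttp at 6.63, Apob at 2.64 and Apoc3 at 1.54. Cd36 was last, at 0.0699 TPM. The ranges of Dgat1 (3.45 to 22.6 TPM), Fabp1 (0.23 to 79.7), Apoa4 (0.341 to 179) and Rbp2 (0.487 to 82.0) overlapped, so their order held in no fixed way across libraries. Apob is a long message, and its low level per length stands beside a median of 483 counts per library.

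The genes differed in how far they ranged within groups. The within-group SD of log2 CPM, pooled over the 6 groups, was 1.87 for Apoa4, 1.82 for Rbp2, 1.82 for Fabp1, 1.73 for Apoa1 and 1.55 for Apoc3. Among the 13070 genes tested, whose median SD was 0.28, even Apoc3, the lowest of these 5 variable genes, lay above 99.8%. Apoa4 ran from 9 counts (0.557 CPM) in ABX zinc library 1 to 4328 counts (353 CPM) in SPF zinc library 1, a 633-fold range. Fabp1 spanned 539-fold, Rbp2 298-fold, Apoa1 177-fold and Apoc3 51.6-fold. The less variable genes had SDs of 0.51 (Fabp2), 0.41 (Apob), 0.39 (Dgat1) and 0.38 (Mttp), which still lay above 68.9% (Mttp) to 79.4% (Fabp2) of all genes tested, and 3.87-fold (Mttp) to 6.67-fold (Apob) ranges except for Dgat1, which spanned 2.98-fold. Cd36 lay between, with an SD of 0.90, but at 0 to 31 counts per library its spread is partly counting error.

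**Figure D1:**
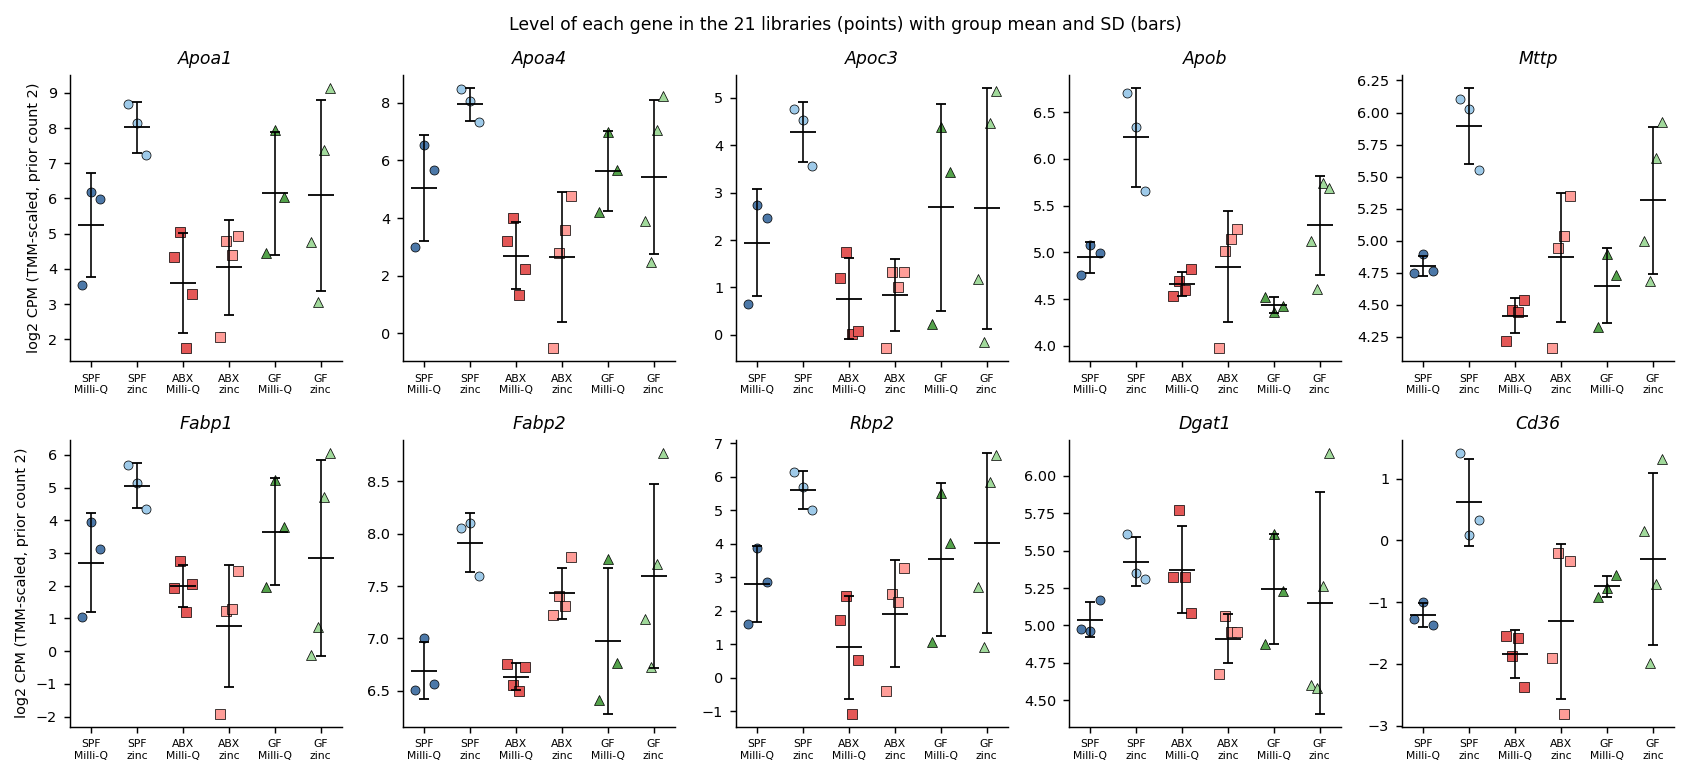
The log2 CPM of the 10 genes (y axis, a separate scale for each gene) is plotted for each of the 21 libraries in the 6 groups (x axis), with bars for the group mean and SD. Apoa1, Apoa4, Apoc3, Fabp1 and Rbp2 range most widely within groups and Apob, Mttp, Fabp2 and Dgat1 less (within-group SD 1.55 to 1.87 against 0.38 to 0.51), and the 3 SPF zinc libraries sit above the 3 SPF Milli-Q libraries for every gene.

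Apoa4, a lipoprotein component and satiety-linked secreted protein, was at its lowest levels after antibiotics. The SPF Milli-Q libraries had 7.83, 91.5 and 50.2 CPM, and the SPF zinc libraries had 353, 265 and 159.6 CPM. The ABX Milli-Q libraries had 9.16, 16.0, 2.40 and 4.52 CPM, and the ABX zinc libraries had 0.557, 6.73, 11.8 and 26.9 CPM. On Milli-Q water the groups overlapped through SPF library 1, which lay inside the ABX range, whereas on zinc water every ABX library lay far below every SPF library. The GF libraries had 18.5, 127 and 50.5 CPM on Milli-Q water and 14.7, 5.46, 132 and 303 CPM on zinc water. On Milli-Q water all 3 GF libraries exceeded all 4 ABX libraries, as 16.9% of all genes tested did, but they overlapped when library totals were used in place of TMM. On zinc water GF and ABX libraries overlapped for all 10 genes, and GF zinc libraries 1 and 2 lay inside the ABX range of Apoa4. The fitted difference of ABX from SPF was -2.67 ± 0.98 (log2 ± SE) on Milli-Q water and -4.50 ± 1.02 on zinc water, that is 0.158 and 0.0441 of the SPF level.

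Apoa4 was not alone in this. On zinc water 9 of the 10 genes had every ABX library below every SPF library, all but Fabp2, beside 13.2% of all genes tested. On Milli-Q water only Mttp and Cd36 did, beside 4.06% of all genes. Without SPF zinc library 1 the same 9 did on zinc water. With library totals in place of TMM 8 did on zinc water, as Dgat1 was lost, and only Cd36 did on Milli-Q water. These counts describe the contrast that the low Apoa4 level came from, and they include Cd36, at 0 to 31 counts per library. On zinc water the differences of ABX from SPF were -3.85 ± 0.93 for Fabp1, -3.75 ± 0.99 for Apoa1, -3.48 ± 0.82 for Apoc3 and -3.34 ± 0.91 for Rbp2, against -1.37 ± 0.25 for Apob and -0.49 ± 0.32 for Fabp2. The variable genes thus had the larger differences here, as they had the larger spread. Without SPF zinc library 1 the differences were -4.22 ± 1.08 for Apoa4, -3.49 for Fabp1, -3.37 for Apoa1, -3.24 for Apoc3, -3.04 for Rbp2, -1.12 for Apob and -0.43 for Fabp2. On Milli-Q water the differences ran from -2.67 for Apoa4 to 0.35 ± 0.26 for Dgat1. In bulk sorts fewer cells of a type and less RNA per cell cannot be told apart.

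The enterocyte markers moved alongside. The mean log2 CPM of 20 enterocyte markers, among them Sis, Lct and Alpi, was 2.64 to 4.15 in SPF Milli-Q libraries, 4.59 to 5.31 in SPF zinc, 2.21 to 2.93 in ABX Milli-Q and 2.41 to 3.59 in ABX zinc libraries. It was 2.48 to 3.96 in GF Milli-Q and 2.87 to 4.87 in GF zinc libraries. Their summed level was 795 to 924, 1079 to 1505, 753 to 896, 766 to 942, 876 to 1054 and 931 to 1386 CPM in the same 6 groups. All 20 markers had reads. Defining enterocyte genes were low and uneven, with Lct at 0.309 to 55.6 CPM, Alpi at 0.72 to 47.1 CPM and Sis at 2.35 to 72.1 CPM. The part of enterocyte RNA in the low Apoa4 level was not tested.

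Across the 21 libraries the apolipoprotein and binding protein genes followed those markers. With the mean log2 CPM of the markers, Pearson's r was 0.92 for Apoa1 (Spearman's rho 0.91), 0.91 for Apoa4 (0.89), 0.92 for Rbp2 (0.93), 0.89 for Apoc3 (0.90) and 0.83 for Fabp1 (0.81). Without the 2 libraries farthest from the median of the marker level, r remained 0.90, 0.88, 0.92, 0.87 and 0.79 for these genes. After the group means were taken out, r was 0.95 for Apoa1, 0.95 for Apoa4, 0.93 for Rbp2, 0.92 for Apoc3 and 0.95 for Fabp1, so the relation was present between libraries of the same group. Mttp (r = 0.92), Apob (0.87) and Fabp2 (0.82) followed the markers too, over far smaller ranges, and r was 0.52 for Dgat1 and 0.72 for Cd36. After the group means were taken out it was 0.88 for Fabp2, 0.83 for Mttp, 0.77 for Dgat1, 0.71 for Apob and 0.42 for Cd36, another order than over all libraries. Not every marker behaved this way: r between Apoa4 and Treh, the brush border trehalase, was 0.96, while r with Mgam, a maltase abundant in all libraries, was -0.02. With the log2 of the summed marker CPM r was 0.85 for Apoa1, 0.84 for Apoa4 and Rbp2, 0.83 for Apoc3 and 0.77 for Fabp1. Within groups it was 0.75 for Apoa1, 0.74 for Apoa4 and Apoc3, 0.72 for Rbp2 and 0.80 for Fabp1. Both sets lay below those with the mean log2 CPM. These are 21 libraries that share depth and scaling, and each r is a description.

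**Figure D2:**
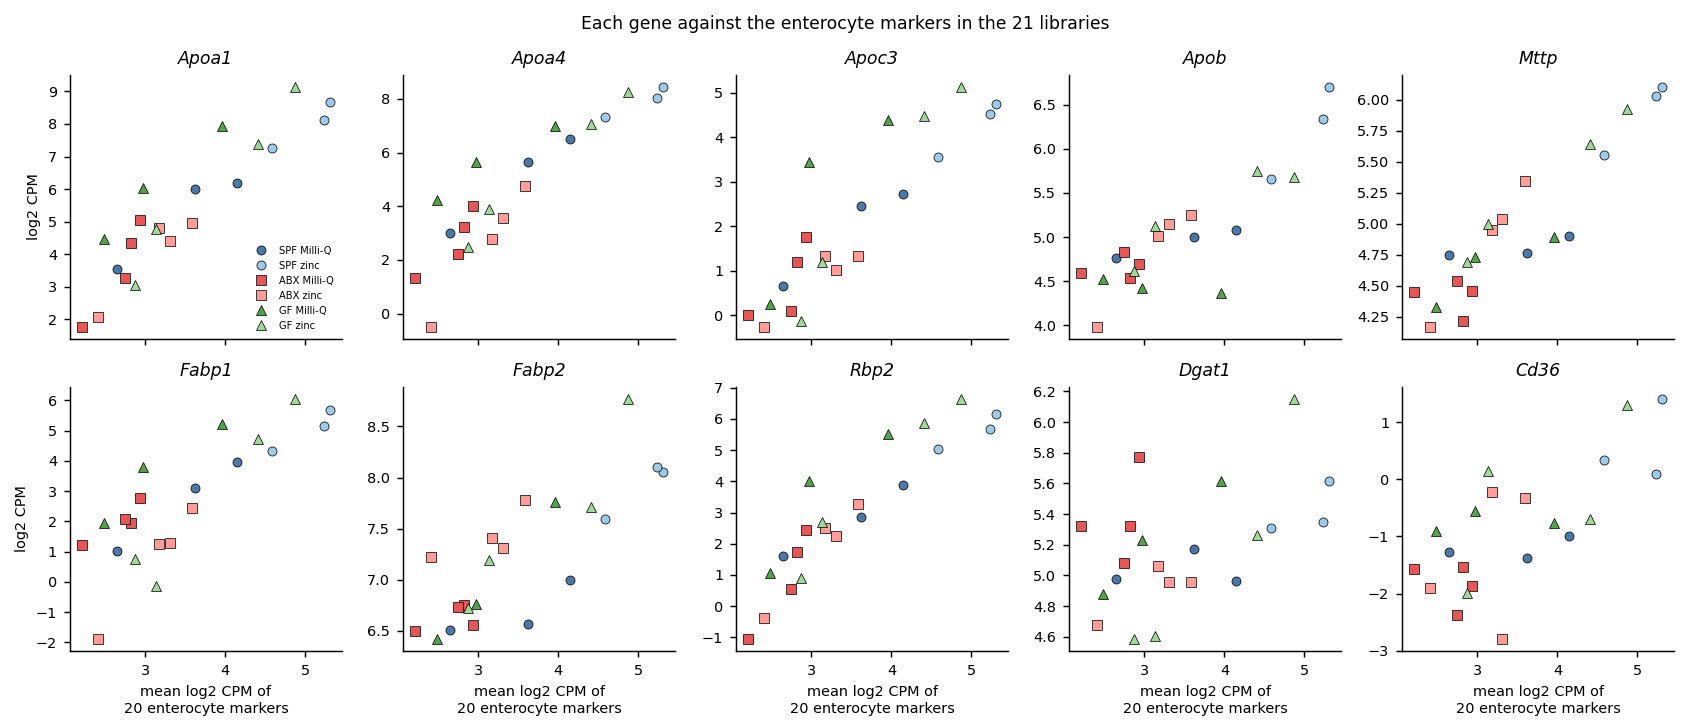
Each panel plots the log2 CPM of a gene (y axis, a separate scale for each gene) against the mean log2 CPM of 20 enterocyte markers (x axis) in the 21 libraries, with shape and colour for the group. Apoa1, Apoa4, Apoc3, Fabp1 and Rbp2 climb with the markers over the widest ranges, and Dgat1 has the lowest r over all 21 libraries (0.52), though not within groups.

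The variable genes kept closer proportions to each other than to the less variable genes. For every 100 counts of Apoa1, the libraries held 8.93 to 34.6 counts of Rbp2, 4.76 to 26.9 of Apoc3, 13.8 to 126 of Apoa4 and 2.88 to 67.2 of Fabp1. The same ratio ran from 8.26 to 748 for Apob, from 10.7 to 673 for Mttp, from 64.2 to 3711 for Fabp2 and from 11.8 to 1239 for Dgat1. The less variable genes thus shifted 57.8-fold or more against Apoa1, the variable ones 3.88-fold (Rbp2) to 23.3-fold (Fabp1). Apoa1 spanned 177-fold and the genes were split by spread in these libraries, so the wide shift of the less variable genes follows from that. Fabp1 departed from the set in 3 libraries in particular: it was 3.08 per 100 Apoa1 counts in ABX zinc library 1 (2 counts in all), 2.88 in GF zinc library 1 and 67.2 in ABX Milli-Q library 3. Apoa4 made up 45.9 to 74.6 per 100 Apoa1 counts in ABX Milli-Q libraries and 68.0 to 126 in SPF Milli-Q libraries. Pairwise r over the 21 libraries was 0.98 for Apoa1 with Rbp2, 0.97 with Apoa4 and 0.97 with Apoc3, while Apob was closest to Mttp (0.93), the protein that lipidates it.

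**Figure D3:**
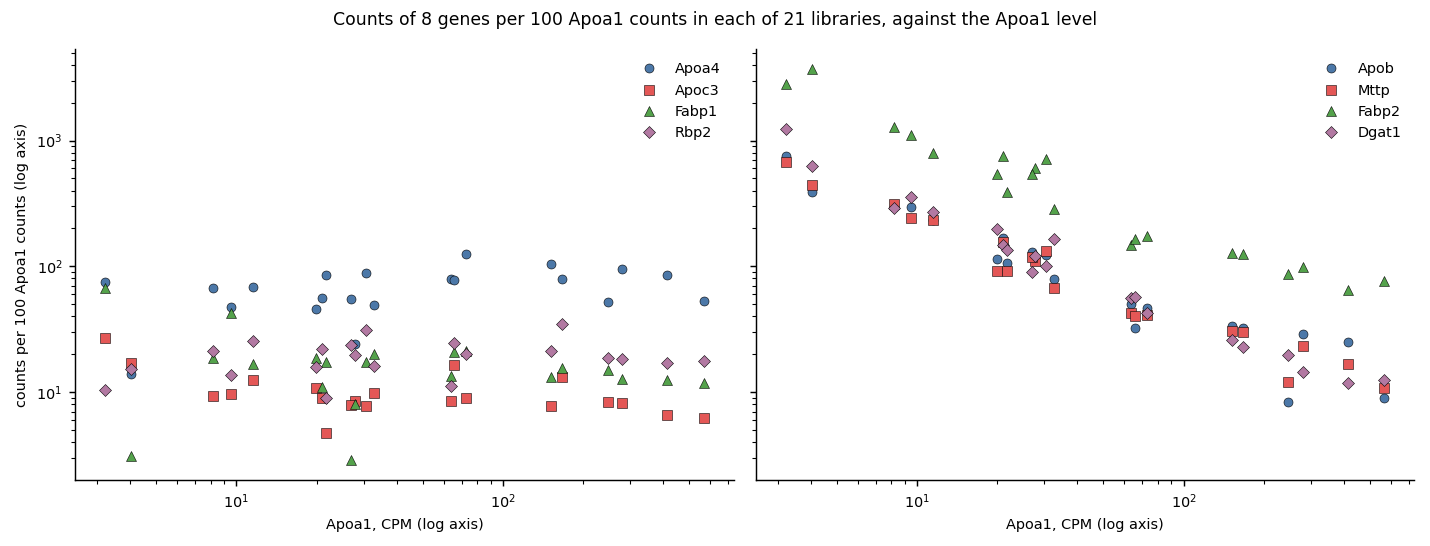
Counts of 8 genes per 100 Apoa1 counts (y axis, log scale) are plotted against the Apoa1 level in CPM (x axis, log scale), 1 point per gene and library; Apoa1 enters both axes. In the right panel Apob, Mttp, Fabp2 and Dgat1 fall as Apoa1 rises, and in the left panel Apoa4, Apoc3, Fabp1 and Rbp2 shift less. Apoc3 also falls, from 26.9 and 16.9 in the 2 libraries lowest in Apoa1 to 6.51 and 6.20 in the 2 highest.

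Outside the 10 genes, the closest patterns to Apoa4 over the 21 libraries, by r of log2 CPM among genes of at least 5 CPM on average, were those of Ggt1 (0.94), Adh6a (0.94), Slc26a6 (0.93), Alpi (0.92) and Lct (0.92). Alpi, intestinal alkaline phosphatase, and Lct, lactase, are brush border enzymes on the enterocyte marker list. The closest to Fabp1 were Adh6a (0.92), Ggt1 (0.88), Reg1 (0.88), Ephx2 (0.88) and Lct (0.88). Adh6a, Ggt1 and Lct stood in both sets of 5.

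Zinc water was compared with Milli-Q water in SPF mice first. Every gene was higher on zinc, by 0.39 (Dgat1) to 2.62 (Rbp2) on the log2 scale, and Apob alone passed the test. Apob had 27.0, 33.7 and 31.8 CPM on Milli-Q water and 104, 80.8 and 50.4 CPM on zinc water, without overlap. It rose by 1.34 ± 0.28 (log2 ± SE, 2.54-fold, adjusted p = 0.045 in edgeR's quasi-likelihood test with Benjamini-Hochberg adjustment over 13070 genes). That is 1 of 10 genes, beside 0.138% of all genes called (0.0612% called higher).

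Mttp was also tight within its groups, at 26.8, 29.6 and 27.1 CPM on Milli-Q water and 68.8, 65.1 and 46.9 CPM on zinc water. Its difference was 1.11 ± 0.26 (adjusted p = 0.12). Fabp2 had 90.9, 128 and 94.6 CPM on Milli-Q water and 265, 275 and 193 CPM on zinc water, a difference of 1.22 ± 0.35 (adjusted p = 0.31). The variable genes differed more in size and less in proportion to their spread. Rbp2 had 2.93, 14.7 and 7.15 CPM against 70.9, 51.2 and 32.4 CPM, a difference of 2.62 ± 0.97 (adjusted p = 0.67). Apoa1 had 11.5, 72.9 and 63.6 CPM against 413, 279.97 and 152 CPM, a difference of 2.51 ± 1.04 (adjusted p = 0.84). Apoa4 differed by 2.37 ± 1.03 and Apoc3 by 2.18 ± 0.83, and neither passed the test.

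In all 10 genes the 3 zinc libraries lay above the 3 Milli-Q libraries, which 6.7% of all genes tested did, and 9 of 10 genes had an unadjusted p under 0.05, beside 5.09% of all genes. The genes were chosen with their levels in these libraries known, and many moved together, so both counts are a description and no support. Cd36 is in both counts, though it had 4 to 7 counts on Milli-Q water and passed the low-count filter through zinc libraries. When libraries were scaled by their totals, not by TMM, the gap between the groups held for 9 genes, with Dgat1 as the exception, and Apob did not pass the test. Apob also lost its call in 5 of the 6 fits that left out 1 library, all but the one without SPF zinc library 3 (differences 1.09 to 1.58 over the 6). Without SPF zinc library 1 its difference was 1.09 (adjusted p = 0.46) and 0 of the 10 genes passed, while the libraries still did not overlap for any of them. The differences of Mttp (1.01), Fabp2 (1.16), Rbp2 (2.32), Apoa1 (2.13), Apoa4 (2.09) and Apoc3 (1.94) were smaller without it. The enterocyte markers had a median difference of 1.70, and 1 of 20 passed the test. Their part in these differences was not tested. With the summed marker CPM as a term in the fit the zinc difference of Apob became 0.17, that of Apoa1 -1.23 and that of Rbp2 -0.74. That sum was itself higher in every SPF zinc library (1079 to 1505 CPM) than in every SPF Milli-Q library (795 to 924 CPM). Zinc and the markers therefore cannot be told apart here.

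**Figure D4:**
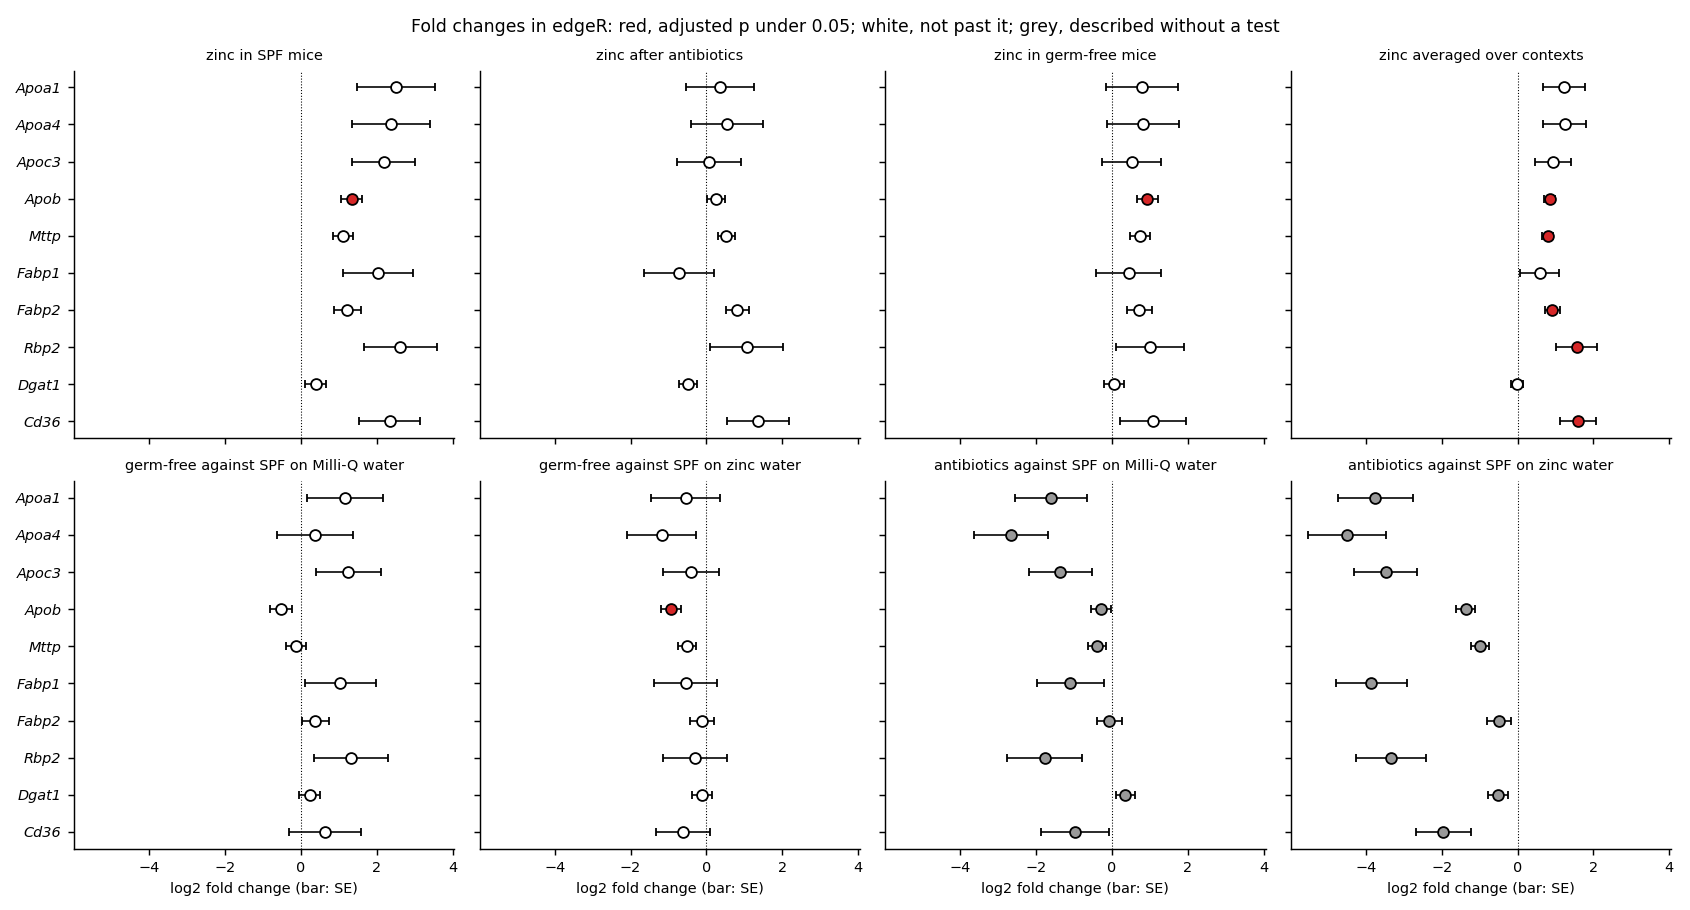
Log2 fold changes with SE (x axis) of the 10 genes (y axis) are plotted for zinc against Milli-Q water in SPF, ABX and GF mice and averaged over the 3, for GF against SPF, and for ABX against SPF, which was described without a test. Red points passed an adjusted p of 0.05 in edgeR and white ones did not; Apob passed in 4 comparisons and the wide bars belong to the variable genes.

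After antibiotics, zinc water went with no such common shift. None of the 10 genes passed edgeR's test, beside 21.7% of all genes, and 2 had an unadjusted p under 0.05, beside 36.3%. DESeq2 called 0 of them (25.0% of all genes) and limma-voom called 1, Fabp2 (29.5%). Fabp2 had 107.5, 93.8, 90.1 and 106 CPM on Milli-Q water and 149, 169, 158 and 219 CPM on zinc water, without overlap, and differed by 0.81 ± 0.30 (adjusted p = 0.059 in edgeR). In the fit of these 8 libraries alone, 3 genes passed, Fabp2, Mttp and Dgat1, beside 3600 of the 12406 genes tested there (29%), so this is the background share.

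Dgat1 went the other way. It had 39.9, 54.5, 39.8 and 33.7 CPM on Milli-Q water and 25.4, 33.3, 30.9 and 30.9 CPM on zinc water, so every zinc library lay below every Milli-Q library (difference -0.48 ± 0.24, adjusted p = 0.15). Libraries that did not overlap were found for 13.9% of all genes in the higher and 13.6% in the lower direction. The Apoa1 difference was 0.36 ± 0.90, that of Apoa4 0.54 ± 0.94 and that of Fabp1 -0.73 ± 0.92, so their libraries overlapped widely. Apob had 23.0, 25.8, 24.03 and 28.2 CPM against 15.6, 32.2, 35.3 and 38.0 CPM, with library 1 on zinc water below all others (0.26 ± 0.24). That library was also the lowest of all 21 for Apoa4, Apoc3, Fabp1 and Mttp. The enterocyte markers had a median difference of 0.33, and 2 of 20 rose.

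In GF mice all 10 genes had a positive zinc difference, from 0.04 (Dgat1) to 1.08 (Cd36), and 1 passed the test, beside 11.3% of all genes (5.88% called higher). Apob had 22.9, 20.4 and 21.3 CPM on Milli-Q water and 34.6, 24.4, 53.4 and 51.3 CPM on zinc water, without overlap, which 5.74% of all genes tested did in that direction. It rose by 0.93 ± 0.27 (1.90-fold, edgeR adjusted p = 0.033). This call was lost in 4 of the 7 fits without 1 library, those without GF Milli-Q library 2 or 3 or GF zinc library 1 or 3, at adjusted p-values of up to 0.16. Mttp differed by 0.74 ± 0.25 (adjusted p = 0.060), with 19.9, 29.6 and 26.4 CPM against 31.7, 25.7, 49.9 and 60.8 CPM, an overlap through GF zinc library 2.

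GF zinc libraries 3 and 4 stood far above libraries 1 and 2 for the variable genes. Apoa1 had 26.9, 8.19, 167 and 568 CPM there, against 21.8, 247 and 65.5 CPM on Milli-Q water. Rbp2 had 6.39, 1.75, 57.6 and 100.1 CPM, against 1.94, 46.0 and 16.1 CPM. The group means of such genes rest on single libraries, and Apoa1 differed by 0.80 ± 0.95. The same libraries had the higher enterocyte marker means, 4.41 and 4.87 in GF zinc libraries 3 and 4 and 3.96 in GF Milli-Q library 2, against 2.48 to 3.14 in the other 4 GF libraries. Of the 20 enterocyte markers, 4 rose with zinc in GF mice (median difference 1.00).

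Averaged over SPF, ABX and GF mice, zinc water went with higher Apob, Mttp and Fabp2, the scaffold of the chylomicron, its lipid loader and the intestinal fatty acid carrier. Apob rose by 0.84 ± 0.15 (1.80-fold, adjusted p = 0.0015), Fabp2 by 0.92 ± 0.19 (1.89-fold, adjusted p = 0.0035) and Mttp by 0.79 ± 0.14 (1.73-fold, adjusted p = 0.0015). These calls held in each of the 21 fits that left out 1 library, but none held with the enterocyte markers as a term in the fit. With the summed marker CPM the differences of Apob, Fabp2 and Mttp became 0.25, 0.16 and 0.21 (adjusted p = 0.27, 0.50 and 0.24). With the mean marker log2 CPM, a term chosen after the data were seen, they became 0.39, 0.27 and 0.31 (adjusted p = 0.067, 0.12 and 0.062). Rbp2 rose by 1.56 ± 0.54 (adjusted p = 0.042) and Cd36 by 1.60 ± 0.48 (adjusted p = 0.021), which makes 5 of 10 genes called, all higher, beside 21.9% of all genes (10.7% called higher). The Rbp2 call was lost in 14 of those 21 fits. Without SPF zinc library 1 neither passed (adjusted p = 0.078 for Rbp2 and 0.055 for Cd36), and 3 of 10 remained called.

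Cd36 needs its own reading. It had 4 to 7 counts per library in SPF Milli-Q mice, 1 to 4 in ABX Milli-Q and 3 to 5 in GF Milli-Q mice, and 13 to 31, 0 to 14 and 1 to 22 on zinc water in the same order. Only 6 libraries reached 10 counts, all of them on zinc water, so Cd36 passed the filter on low counts through the groups where it was high and its call is no support for the others. Endothelial and immune cells also express Cd36. The 6 endothelial markers summed to 0.337 to 1.99 CPM per library, with 2 of them (Cdh5 and Emcn) at 0 counts in all libraries and the other 4 above 3 counts in at least 1. The 9 immune markers summed to 0 to 8.67 CPM, with Csf1r at 0 in all libraries and 6 above 3 counts in at least 1. The highest sum came from C1qa at 141 counts in SPF Milli-Q library 2. The part of these cells in the Cd36 counts was not tested.

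The other 5 genes showed no averaged difference past the threshold. Apoa1 (1.22 ± 0.55) and Apoa4 (1.24 ± 0.56) both had an adjusted p of 0.11, Apoc3 (0.92 ± 0.47) had 0.16 and Fabp1 (0.58 ± 0.52) had 0.44. Dgat1 was level, at -0.01 ± 0.15. Of the 20 enterocyte markers 12 rose and 0 fell, with a median difference of 1.00. The mean log2 CPM of these markers was also used as a term in the fit, a choice made after the data were seen. The fitted zinc differences were then -1.87 for Fabp1, -1.32 for Apoa4, -1.20 for Apoa1, -1.10 for Apoc3 and -0.47 for Dgat1 (adjusted p = 0.014). The markers rose with zinc and went with these genes, so the signs under this term do not describe a fall in the levels themselves. Rbp2, at -0.72, and Cd36, at 0.74, lost their calls, so that the 5 genes called without the term and the 5 called with it had none in common. Whether the markers stand for a cause of the zinc difference was not tested.

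The size of the zinc difference was compared between the microbial contexts with an interaction term. The interactions with ABX mice use the same ABX levels that the choice of genes rested on. Their counts are therefore a description and no support. In ABX against SPF mice all 10 genes had the smaller zinc difference after antibiotics, by 0.42 (Fabp2) to 2.75 (Fabp1) on the log2 scale, and 0 passed edgeR's test, as did 0 of all genes. At an unadjusted p under 0.05 there were 3 of the 10 genes (Apob, Fabp1 and Dgat1) and 18.5% of all genes. DESeq2 called 0 of the 10 and 1.99% of all genes. In GF against SPF mice the 10 differences ran from -1.71 to -0.35 and 0 passed, with 0 of 10 at an unadjusted p under 0.05, beside 13.3% of all genes. DESeq2 called 0 of the 10 (0.26% of all genes) and limma-voom called Apoa4 and Fabp1 (2.71%). In GF against ABX mice 0 of the 10 passed in edgeR, DESeq2 or limma-voom, beside 0.207%, 2.47% and 5.87% of all genes, and 0 had an unadjusted p under 0.05, beside 16.4%. Without SPF zinc library 1 the differences were -2.39 for Fabp1 and -0.35 for Fabp2 in ABX against SPF mice, and 0 of the 10 passed there or in GF against SPF mice. The SEs were 0.34 (Mttp) to 1.37 (Apoa4) for ABX against SPF, so a difference between contexts in the variable genes was detectable here only if very large.

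GF mice were compared with SPF mice on each water. On Milli-Q water 0 of the 10 genes passed edgeR's test, beside 24.3% of all genes, and 0 had an unadjusted p under 0.05, beside 37.1%. DESeq2 and limma-voom called 0 of the 10 as well, beside 26.8% and 29.5% of all genes. Differences ran from -0.52 ± 0.29 (Apob) to 1.33 ± 0.98 (Rbp2), and every GF library lay below every SPF library for Apob, which 18.8% of all genes tested did. With library totals Apob fell by 1.49 and Mttp by 1.10 and both passed. So did 9333 of the 13070 genes tested, beside a shift of the median of all genes to -0.99.

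On zinc water all 10 genes were lower in GF than in SPF mice, by 0.12 (Dgat1 and Fabp2) to 1.18 (Apoa4) on the log2 scale. Apob fell by 0.93 ± 0.25 (to 0.523 of the SPF level, adjusted p = 0.034 in edgeR), the 1 gene of the 10 to pass, beside 5.85% of all genes (2.38% called lower). GF zinc libraries 3 and 4, at 53.4 and 51.3 CPM, overlapped SPF zinc library 3 at 50.4 CPM. Without SPF zinc library 1 Apob was at -0.68 (adjusted p = 0.15) and Rbp2 at 0.01. The Apob call was also lost without SPF zinc library 2 (adjusted p = 0.12), GF zinc library 1 (0.084) or GF zinc library 2 (0.096). The enterocyte markers had a median difference of -0.79, and 2 of 20 fell.

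The rest of the lipid absorption pathway was described by 5 lists of other genes, to be read beside the 21.9% of all genes called with zinc averaged over contexts (10.7% called higher). Of 16 assembly and export genes 15 were in the table and 11 were tested, and with zinc averaged over contexts 4 rose (A1cf, Mia2, Sar1b and Sec22b) and 1 fell (Apoe). Sar1b and Sec22b act in the transport of chylomicrons out of the endoplasmic reticulum. Apoe, a lipoprotein component made in many tissues, fell by 0.96 ± 0.14 (adjusted p = 0.00026), opposite to Apob. It had 10.96 ± 2.59 CPM (SD, n = 4) in ABX Milli-Q and 4.01 ± 0.90 CPM (n = 4) in ABX zinc mice. The list's median was 0.23, against -0.01 for all genes. The shares called in the uptake, synthesis and regulator lists were near or below those of all genes.

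Of 12 uptake and activation genes 2 rose (Acsl5 and Scp2) and 1 fell, Slc27a2, a fatty acid transport protein, by 0.47 ± 0.10 (adjusted p = 0.0034). The median was 0.16. Of 14 genes of triglyceride and sterol ester synthesis, 1 rose, Mogat2, which makes diacylglycerol for DGAT enzymes, by 1.25 ± 0.29 (adjusted p = 0.0060), and 2 fell (Plin2 and Pnpla2). The median was -0.05. Pnpla2, the adipose triglyceride lipase that breaks stored fat down, fell by 0.84 ± 0.14 with zinc in ABX mice and by 0.70 ± 0.15 in GF mice (adjusted p = 0.0011 and 0.012).

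Of 9 retinoid genes beside Rbp2, 3 rose (Aldh1a1, Bco1 and Rdh11) and 1 fell (Dhrs3), with a median of 0.04. Aldh1a1, which makes retinoic acid, rose by 2.60 ± 0.38 (adjusted p = 0.00024). It went from 2.45 ± 0.93 CPM (SD, n = 4) to 24.7 ± 9.24 CPM (n = 4) in ABX mice, where Rbp2 did not pass (1.06 ± 0.96). Of 16 regulators 2 rose (Hnf4g and Ppara) and 0 fell, with a median of 0.06. Hnf4g, a transcription factor of enterocyte genes, rose by 0.89 ± 0.14 (adjusted p = 0.00071).

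In GF against SPF mice on Milli-Q water, A1cf, which assists the editing of the Apob message, fell by 2.18 ± 0.32 (adjusted p = 8.3e-05). It had 15.9 ± 3.95 CPM (SD, n = 3) in SPF and 3.49 ± 1.91 CPM (n = 3) in GF mice, and rose by 1.51 ± 0.32 with zinc in GF mice (adjusted p = 0.012). Ppara, a fatty acid sensing nuclear receptor, moved the same way, falling by 1.57 ± 0.40 (adjusted p = 0.0073). Acsl3, which activates fatty acids, fell by 1.49 ± 0.25, and Cideb, which acts in lipoprotein lipidation, rose by 0.91 ± 0.20. Cideb had 149 to 236 counts per library in SPF and 131 to 215 in GF mice before scaling. With library totals the median of all genes shifted to -0.99 in this contrast, so the Cideb rise depends on the TMM scaling.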

How the data were processed

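Paneth cell RNA was prepared with a stranded poly(A) kit, and the authors deposited whole-number read counts per Ensembl gene for 21 libraries. The submitters' processing notes name FastQC 0.12.0, STAR 2.7.0a, DESeq2 and mm39; the counting tool and its strand setting are not given in the sources used here. All 10 genes and the lists were chosen with earlier results of these data known. Groups came from the labels. Counts were fitted in edgeR 4.0.16 (R 4.3.3) over all 21 libraries with 6 group means, TMM factors and filterByExpr (13070 genes, all 10 described genes among them), and tested with the two-sided quasi-likelihood F-test and Benjamini-Hochberg adjustment over all genes at 0.05. The code of the fit was run on simulated counts with known changes, and no result here rests on that run. Log2 CPM used a prior count of 2. Symbols, transcript lengths and sequences came from GRCm39 with its GENCODE annotation, which matched 54749 of 55414 identifiers. The 10 genes were named throughout; of each list the called gene with the greatest change was named with its values, and the other called list genes were named after their values were seen. Alternatives covered scaling, DESeq2 1.42.0, limma-voom (limma 3.58.1), low-count filters, libraries in the fit, a replicate block, enterocyte terms and leaving out each library. Depth of 9888174 to 16896714 counts sets the precision of low genes such as Cd36.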

Additional observations from a re-analysis of the deposited data

How the results depend on the processing

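The number of the 10 genes called with zinc in SPF, ABX and GF mice and averaged (1, 0, 1 and 5), in GF against SPF mice on Milli-Q and on zinc water (0 and 1) and in the 3 interactions (0, 0 and 0) moved as follows. With library totals it became 0 for SPF zinc, 4 averaged, 2 for GF against SPF on Milli-Q water and 2 on zinc water. Of all 13070 genes tested, 19, 1285, 9333 and 6308 were called in the same order. DESeq2 called 2 for SPF zinc, 2 for GF zinc and 4 averaged, beside 40, 2025 and 3271 of all genes. Limma-voom called 3 (SPF), 1 (ABX), 0 (GF) and 3 (averaged), 7 for GF against SPF on zinc water and 2 for the GF against SPF interaction. It called 60, 3853, 3157, 4125, 2083 and 354 of all 13070 genes in the same order. Without a filter the counts were 8, 6, 6 and 9 for zinc, 5 and 5 for GF against SPF and 7, 5 and 1 for the interactions. Of the 24548 genes tested there, 269, 2846, 1906, 3064, 3224, 1110, 675, 429 and 323 were called in the same order. The prior degrees of freedom in edgeR were then infinite (8.52 with the filter), so every gene took the spread of the trend in place of its own. A filter of 10 counts in 10 libraries gave 0 for SPF zinc and 4 averaged, beside 11 and 2895 of 12117 genes. With only the groups compared the counts were 2 (SPF), 3 (ABX), 0 (GF), 1 and 0 (GF against SPF) and 1 (ABX against SPF interaction). Of the 11448 to 13036 genes tested in these fits, 15, 3600, 3, 2388, 14 and 249 were called. The summed enterocyte marker CPM as a term gave 0, 2, 0 and 1 for zinc and 1 and 0 for GF against SPF. It gave 9, 3095, 1978, 2172, 2723 and 357 of all 13070 genes in the same order. The mean marker log2 CPM as a term, chosen after seeing the data, gave 0, 4 and 5 for zinc in SPF, ABX and GF mice. It gave 5 for GF against SPF on Milli-Q water. Of all 13070 genes, 45, 3505, 2687 and 3485 were called in the same order. The 5 averaged calls under this term (3454 of all genes) were all lower and shared no gene with the 5 higher ones without it. On zinc water Rbp2 took the place of Apob as the 1 call for GF against SPF (384 of all genes). Leaving out 1 library gave 0 to 1 (SPF), 0 to 1 (ABX), 0 to 2 (GF), 3 to 5 (averaged), 0 to 0 and 0 to 2 (GF against SPF) and 0 to 0 for each interaction. The cause of the other shifts was not tested.

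Directions reversed past a threshold under the marker terms only. With the mean marker log2 CPM, zinc differences became -0.93 for Apoa4 in ABX mice, -1.70 (Apoa1), -1.96 (Apoa4), -1.54 (Apoc3), -2.14 (Fabp1) and -1.25 (Rbp2) in GF mice, and -1.20 (Apoa1), -1.32 (Apoa4), -1.10 (Apoc3), -1.87 (Fabp1) and -0.72 (Rbp2, not called) averaged, while Rbp2 became 1.43 in GF against SPF mice on zinc water. With the summed CPM, Fabp1 became -1.60 and Rbp2 -0.40 (not called) averaged. A further 160 changes of sign had no call on either side.

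In the pairs of groups compared, deviations of same-numbered libraries from their group means correlated at -0.17 to 0.23, which shows no strong pairing by replicate number. Differently numbered libraries were not set beside them, so a weaker pairing cannot be told from none. With a replicate block the 10 genes had 1 call for ABX zinc, 0 for GF zinc and 3 for the average. Of all genes, 2706, 1416 and 2831 were called there.

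Counts over all genes also moved over the alternatives other than leaving out a library: 18 for SPF zinc (9 to 269), 2837 for ABX zinc (1447 to 3853), 1483 for GF zinc (3 to 3157), 2860 averaged (1285 to 4125), 3171 and 764 for GF against SPF (2388 to 9333 and 14 to 6308) and 0, 0 and 27 for the interactions (up to 675, 429 and 767). Leaving out 1 library gave 5 to 37, 1317 to 2679, 5 to 3436, 1947 to 4160, 1661 to 3253, 51 to 1573, and up to 21, 767 and 362 in the same order. Depth limits Cd36 most, at 0 to 31 counts per library.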
